A study of Mus musculus with 2 samples.

Results

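Single-cell RNA profiles were examined for cells that carried transcripts of Hba-x, Ebf1, Sox11, Fgf8 or Nefl, 5 genes that are rarely detected in mouse embryonic stem cells. A cell was a member when at least 2 raw UMIs (distinct tagged transcripts) came from these genes in sum. Among 29466 kept cells, 692 were members: 364 of 17878 in the DMSO library and 328 of 11588 in the dTAG13 library. The proposed name of the cells, formative-leaning with Hba-x and Fgf8, was checked against the data, and its Hba-x term did not hold: 187 of the 194 Hba-x UMIs of the DMSO library lay in 1 cell, and the dTAG13 library had 0. The Fgf8 term covered a minority, as an Fgf8 UMI was found in 17.3% of DMSO and 8.54% of dTAG13 members. The members are therefore called by their rule, as cells with Ebf1, Nefl, Sox11 or Fgf8 transcripts.

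The libraries came from embryoid bodies of J1 male mouse embryonic stem cells, the aggregates in which such cells begin to differentiate. One library was from bodies kept for 2 days with DMSO, the solvent, and the other from bodies kept for 2 days with dTAG13, a small molecule that leads proteins fused to a mutant FKBP12 tag to degradation. The series title names Tex10, a subunit of a nuclear complex that works in ribosome maturation, but which protein was tagged, and in how many clones, is not stated in the labels. With 1 library per group there is no replicate check, so no test was made. Ranges in parentheses are 95% intervals and reflect counting error alone.

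Naive pluripotent cells resemble the epiblast of the blastocyst before implantation. They leave this state by lowering factors such as Klf4, Tbx3, Esrrb and Zfp42 while Pou5f1 and Sox2 stay on, and they pass through a formative state with Dnmt3b, Pou3f1, Lef1, Fgf5 and Otx2 before germ layers are specified. FGF signalling through ERK promotes this exit, and Fgf8 is an FGF ligand of the gastrulating embryo. Ebf1 is a transcription factor best known from B cells, Sox11 a transcription factor of neural progenitors, Nefl the light chain of neurofilaments, and Hba-x an embryonic alpha-like globin of primitive red cells.

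The promoter windows below, 250 bases before to 50 after an annotated start, are shown because the label joins Hba-x with genes that the members did carry. They are RefSeq sequence of build GRCm38.p6, found for 4 of the 6 marker genes (Hba-x, Ebf1, Sox11 and Dnmt3b). Capitals mark each CG pair, the letters that DNA methyltransferases modify. Ebf1 has a pair of windows, of which the one at the higher coordinates is printed. The sequences read 5′ to 3′ on the gene's strand.
Hba-x, chr11:32276350-32276649, plus strand: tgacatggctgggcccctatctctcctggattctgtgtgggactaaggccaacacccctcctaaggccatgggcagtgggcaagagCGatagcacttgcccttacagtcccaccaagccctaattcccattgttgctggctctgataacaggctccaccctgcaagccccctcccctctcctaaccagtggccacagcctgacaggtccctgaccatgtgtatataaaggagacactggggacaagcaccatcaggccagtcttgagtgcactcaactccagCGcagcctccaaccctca
Ebf1, chr11:44619978-44620277, plus strand: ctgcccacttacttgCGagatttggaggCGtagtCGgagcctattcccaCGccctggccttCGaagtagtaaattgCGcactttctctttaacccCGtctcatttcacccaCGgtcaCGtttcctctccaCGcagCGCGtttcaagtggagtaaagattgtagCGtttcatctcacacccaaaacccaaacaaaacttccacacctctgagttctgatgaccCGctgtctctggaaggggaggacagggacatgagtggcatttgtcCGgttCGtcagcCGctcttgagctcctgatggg
Sox11, chr12:27342669-27342968, minus strand: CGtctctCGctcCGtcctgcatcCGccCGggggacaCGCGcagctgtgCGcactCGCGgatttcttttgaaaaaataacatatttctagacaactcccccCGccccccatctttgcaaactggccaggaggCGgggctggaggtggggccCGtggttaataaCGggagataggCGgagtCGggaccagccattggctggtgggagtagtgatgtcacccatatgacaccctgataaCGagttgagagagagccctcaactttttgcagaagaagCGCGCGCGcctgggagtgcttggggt
Dnmt3b, chr2:153649199-153649498, plus strand: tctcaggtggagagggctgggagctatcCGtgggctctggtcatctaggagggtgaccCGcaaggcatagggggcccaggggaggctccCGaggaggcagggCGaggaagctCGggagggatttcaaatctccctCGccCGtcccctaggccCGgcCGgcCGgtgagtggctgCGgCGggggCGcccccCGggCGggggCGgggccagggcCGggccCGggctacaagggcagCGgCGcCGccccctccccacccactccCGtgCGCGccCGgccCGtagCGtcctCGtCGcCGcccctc

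The windows differ in CG content. Hba-x has 2 CG pairs, and 85.9% of the 32851 windows of this length have at least as many. The printed Ebf1 window has 17 (31.4% of windows have as many or more), Sox11 has 21 (24.8%) and Dnmt3b has 30 (11.7%). Searched on both strands, the letters TATAAA occurred once in the Hba-x window, at position -28 from the start, and in none of the other 3 printed windows; 13.6% of all windows hold them. GATAA, the core letters bound by GATA factors, occurred once each in the Hba-x and Sox11 windows and in 25.4% of all windows. The Ebf1 window that is not printed, chr11:44617850-44618149, also holds GATAA once and has 9 CG pairs (45.8% of windows have as many or more). A match is a description of the letters and not evidence of binding.

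The globin signal of the members came from 1 cell of the DMSO library. Hba-x (ENSMUSG00000055609) had 187 UMIs in this cell, 96.4% of the library's Hba-x UMIs and 3.34% of the cell's 5606 UMIs. The other 7 cells with Hba-x had 1 UMI each. The same cell held 29 UMIs of Hba-a1, an alpha globin, 15 of Hbb-bh1 and 3 of Hbb-y, embryonic beta-like globins, against 23, 1 and 33 UMIs in all other DMSO cells together. It also held 3 UMIs of Gata1 and 2 of Tal1, transcription factors of red cells. It had 3 Ebf1 UMIs and no UMI of Sox11, Fgf8, Nefl or Dnmt3b. No UMI of Pou5f1, Sox2, Nanog or Zfp42 was found in it, while 16848 of the other DMSO cells had a Pou5f1 UMI. Dppa5a, the most abundant pluripotency transcript of these libraries, had 3 UMIs in this cell and stood at 7262 UMIs per 1e6 UMIs (CPM) in the other DMSO cells. In the dTAG13 library, 0 of 11588 cells had an Hba-x UMI, which allows a share of cells with such a UMI of up to 0.0259% (3 counts of the total). Of the other 363 DMSO members, 1 had an Hba-x UMI. Leaving the cell out, a check added after the data were seen, left the member share and the Dnmt3b, naive and formative ratios below within their counting intervals. The sums of the other lists, among them blood and endothelium, were not recomputed without it.

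Ebf1 (ENSMUSG00000057098) and Nefl (ENSMUSG00000022055) made most members. An Ebf1 UMI was found in 66.8% of DMSO members and 53.7% of dTAG13 members, and a Nefl UMI in 48.1% and 53.7%. Sox11 (ENSMUSG00000063632) was found in 29.1% and 42.1%, and Fgf8 (ENSMUSG00000025219) in 17.3% and 8.54%. Over all kept cells these were rare transcripts. The level of Ebf1 was 8.24 CPM in the DMSO and 6.60 CPM in the dTAG13 library, Nefl at 7.39 and 6.55 in the same order, Sox11 at 2.65 and 4.86, and Fgf8 at 1.65 and 0.741. Sox11 was thus higher in the dTAG13 library, and Fgf8 and Ebf1 in the DMSO library, with counting intervals that did not overlap between libraries. Those of Nefl overlapped. How many of all genes have such a gap between these single libraries was not computed.

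Most members sat at the threshold. In the DMSO library 219 members had 2 UMIs of the 5 genes, 83 had 3 and 62 had 4 or more; in the dTAG13 library the numbers were 199, 64 and 65. The cells just outside, with 1 UMI, numbered 1357 and 799. Only 1 gene supplied the UMIs of 159 DMSO and 158 dTAG13 members, 2 genes those of 186 and 151, and 3 genes those of 18 in each library. In each library 1 cell had 4 of the genes, and none had 5.

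The share of members followed sequencing depth. It was 2.04% (1.83 to 2.25) in the DMSO library and 2.83% (2.54 to 3.15) in the dTAG13 library. Members had a median of 7598.5 UMIs in the DMSO library and 10184.5 in the dTAG13 library, against 5930 and 6919 in cells with 0 UMIs of the 5 genes. When every cell was thinned to 4000 UMIs, the share was 0.937% (0.793 to 1.10) with DMSO, from 15908 cells, whereas it was 0.886% (0.718 to 1.08) with dTAG13, from 10720 cells. The intervals overlapped, and the order of the libraries was no longer that of the raw shares. Thinning left out 10 DMSO and 8 dTAG13 members with fewer UMIs, and 1881 and 833 cells with 0 UMIs of the 5 genes. Each member was therefore set beside up to 3 cells of its library without these transcripts and with total UMIs within 5% of its own, called matched cells below. There were 1086 matched cells for 362 DMSO members and 963 for 328 dTAG13 members, with medians of 7594.5 and 10102 UMIs.

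The 4 genes tended to occur in the same cells. This was measured by leaving each gene out of the rule in turn, so that it played no part in choosing the cells. The genes had been given together as markers, with earlier results of these data known. Their overlap is therefore a description and not independent support for the set. Ebf1 had a UMI in 30.5% (23.7 to 37.9) of the DMSO cells chosen by the other genes and in 5.01% (3.30 to 7.25) of their matched cells; in the dTAG13 library the shares were 22.1% (16.4 to 28.5) and 5.69% (3.95 to 7.90). Sox11 was found in 14.6% against 2.10% of cells with DMSO and in 16.7% against 4.68% with dTAG13. Fgf8 was found in 7.38% (4.79 to 10.8) against 0.619% (0.228 to 1.34) and in 5.06% (2.92 to 8.09) against 0.108% (0.00273 to 0.599). Nefl showed the smallest separation, with 14.1% against 5.34% and 18.7% against 6.80%. The intervals of chosen and matched cells did not overlap for any of these 4 genes in either library.

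**Figure D1:**
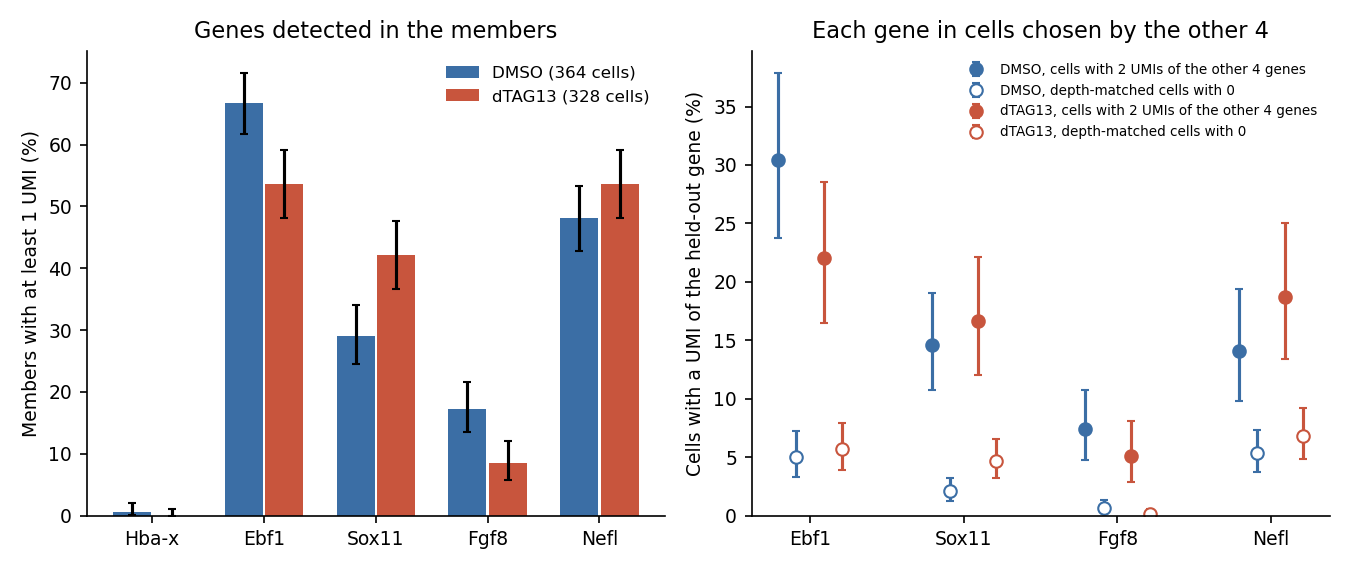
Left, share of members (percent) with at least 1 UMI of each of the 5 genes, as bars from 0 with exact 95% binomial intervals; right, share of cells (percent) with a UMI of a gene among cells chosen by the other 4 genes (filled) and among depth-matched cells with 0 such UMIs (open), with the same intervals. Hba-x is near 0 among members, and each of the other genes is detected more often in the cells chosen without it, as for Ebf1 with DMSO (30.5% against 5.01%).

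Pairs of genes showed where this overlap was strongest. Among the 154 DMSO cells with Fgf8, 24.7% also had Ebf1, against 2.60% of matched cells, and among the 45 dTAG13 cells with Fgf8 the shares were 28.9% and 3.70%. For Nefl in DMSO cells with Fgf8 the intervals overlapped, at 6.49% (3.16 to 11.6) against 4.77% (3.02 to 7.14). In dTAG13 cells with Fgf8 they did not, at 35.6% (21.9 to 51.2) against 7.41% (3.61 to 13.2). Cells with 2 or more Fgf8 UMIs were few, 29 and 15, and were set beside 87 and 45 matched cells to find the genes most like Fgf8 by the ratio of CPM. Apart from Ebf1 with 22 UMIs against 1, genes with high ratios in the DMSO cells were Serpinh1, a collagen chaperone, with 12 UMIs against 2, the imprinted adaptor Grb10 with 18 against 5 and the FGF ligand Fgf15 with 9 against 3. In the dTAG13 cells they were Nefl with 26 against 3, the lipid enzyme gene Scd2 with 18 against 2, Pbx3 with 13 against 3, the hormone precursor Trh with 122 against 32 and the activin antagonist Fst with 15 against 4. These genes were ranked on the same counts, so the ratios are descriptions.

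Measures outside the rule showed what else set the members apart. A gene was called higher or lower at a ratio of at least 1.5-fold between members and matched cells. Among genes at 20 CPM or more, 162 of 4792 (3.38%) were called higher and 151 (3.15%) lower in the DMSO members, and 184 of 5093 (3.61%) higher and 169 (3.32%) lower in the dTAG13 members. The libraries do not share cells, and each has its own matched cells. Of the genes that reached this limit in both libraries, 139 were called higher in DMSO members and 140 in dTAG13 members. Both libraries called 86 of them, 61.9% and 61.4% of these calls. Called lower were 113 and 135, with 70 in both (61.9% and 51.9%). Across 4567 genes, which are not independent of one another, the log2 ratios of the libraries had a Pearson correlation of 0.71.

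**Figure D2:**
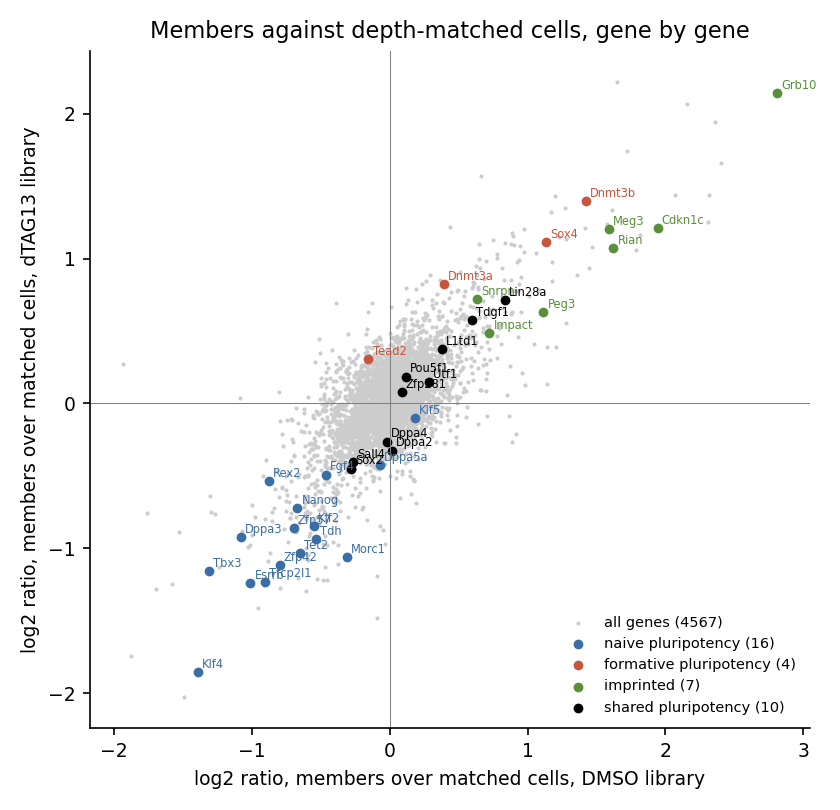
Log2 ratio of CPM in members over depth-matched cells for each gene at 20 CPM or more in both libraries, DMSO on the horizontal axis and dTAG13 on the vertical axis, with genes of 4 lists coloured. Naive genes such as Klf4 and Tbx3 lie low in both libraries, Dnmt3b, Sox4 and the imprinted genes Grb10, Cdkn1c and Meg3 lie high in both, and Pou5f1 lies near 0.

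Formative genes were higher in the members of both libraries. Dnmt3b (ENSMUSG00000027478), a de novo DNA methyltransferase that the rule did not use, stood at 87.2 CPM in DMSO members and 32.5 CPM in matched cells, a ratio of 2.68 (2.27 to 3.17), and at 75.6 and 28.8 CPM in the dTAG13 library, a ratio of 2.63 (2.24 to 3.09). Both member groups were above both matched groups. Dnmt3b was among the markers given with the proposed name, so these values describe the members and are not independent support for it. The files also list Dnmt3bos, an opposite-strand gene, and the sources used here do not state whether counting used strand, so reads of the pair may not be told apart. Pou3f1, a POU factor of the epiblast, stood at 11.3 against 1.17 CPM with DMSO and at 20.6 against 3.92 CPM, ratios of 9.66 (4.81 to 21.0) and 5.26 (3.60 to 7.78). Lef1, a nuclear effector of Wnt signalling, stood at 12.5 against 1.59 CPM and at 11.5 against 3.65 CPM. Sox4, a relative of Sox11, stood at 21.6 against 9.88 CPM and at 34.1 against 15.8 CPM.

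At a limit of 10 CPM used for lists, 5.36% of all genes were called higher in DMSO members and 5.59% in dTAG13 members, with medians over all genes of 0.01 and 0.04 on the log2 scale. Of the formative list, 7 of 10 measured genes were called higher with DMSO and 8 of 11 with dTAG13, none was called lower, and the median log2 ratios were 1.08 and 1.06. The summed list stood at 299.5 against 170.7 CPM in the DMSO library, a ratio of 1.75 (1.62 to 1.90), and at 295.9 against 151.1 CPM in the dTAG13 library, a ratio of 1.96 (1.82 to 2.11). Without Dnmt3b the ratios were 1.54 and 1.80. Not all members of the list took part. Otx2, a homeobox gene central to this state, was at 9.10 against 6.27 CPM and at 6.36 against 8.63 CPM, with intervals of the ratio that include 1, and Tead2 had ratios of 0.898 and 1.24. Fgf5, the classical marker of the later epiblast, was scarce, with 13 UMIs in DMSO members against 2 in matched cells and 15 against 1 with dTAG13.

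Naive genes were lower. Klf4 stood at 16.0 CPM in DMSO members and 42.0 CPM in matched cells, a ratio of 0.381 (0.279 to 0.511), and the dTAG13 values were 9.41 and 34.01 CPM, with a ratio of 0.277 (0.192 to 0.389). Tbx3 had ratios of 0.402 and 0.449, Esrrb of 0.496 and 0.423, and Tfcp2l1 of 0.534 and 0.426, all transcription factors that hold cells in the naive state. Nanog stood at 57.7 against 91.9 CPM and at 47.1 against 77.5 CPM. Zfp42 was among the more abundant, at 365.7 against 636.7 CPM and 176.6 against 382.7 CPM. Against backgrounds of 4.66% and 4.25% of genes called lower at this limit, 13 of 20 naive genes were called lower with DMSO and 14 of 18 with dTAG13, with medians of -0.75 and -0.93 on the log2 scale, and none was called higher. Klf5 was the only measured naive gene with a ratio above 1 in DMSO members, 1.14 (0.978 to 1.31), and it had 0.934 (0.813 to 1.07) with dTAG13.

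The summed naive list without Dppa5a stood at 1573 CPM in DMSO members and 2482 CPM in matched cells, a ratio of 0.634 (0.615 to 0.654), and the dTAG13 sums were 882.7 and 1656 CPM, with a ratio of 0.533 (0.514 to 0.553). Dppa5a, which supplies most UMIs of the list, had ratios of 0.9498 (0.935 to 0.964) and 0.746 (0.734 to 0.757), so it was close to the level of matched cells with DMSO and below it with dTAG13.

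Genes shared by the pluripotent states stayed nearer to the level of matched cells. Pou5f1 stood at 643.5 CPM in DMSO members and 592.7 CPM in matched cells and at 568.0 and 499.4 CPM with dTAG13, ratios of 1.09 (1.03 to 1.14) and 1.14 (1.08 to 1.20). Sox2 was lower, at 244.0 against 295.8 CPM and at 239.5 against 327.1 CPM. Lin28a, an RNA-binding repressor of let-7 microRNAs, had ratios of 1.78 (1.40 to 2.26) and 1.64 (1.34 to 2.003), and Tdgf1, the Nodal co-receptor Cripto, of 1.51 and 1.49. The list's medians were 0.10 and 0.11 on the log2 scale, 2 and 1 of its 10 genes were called higher, and none was called lower in either library. Over all genes, 5.36% and 5.59% were called higher and 4.66% and 4.25% lower.

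**Figure D3:**
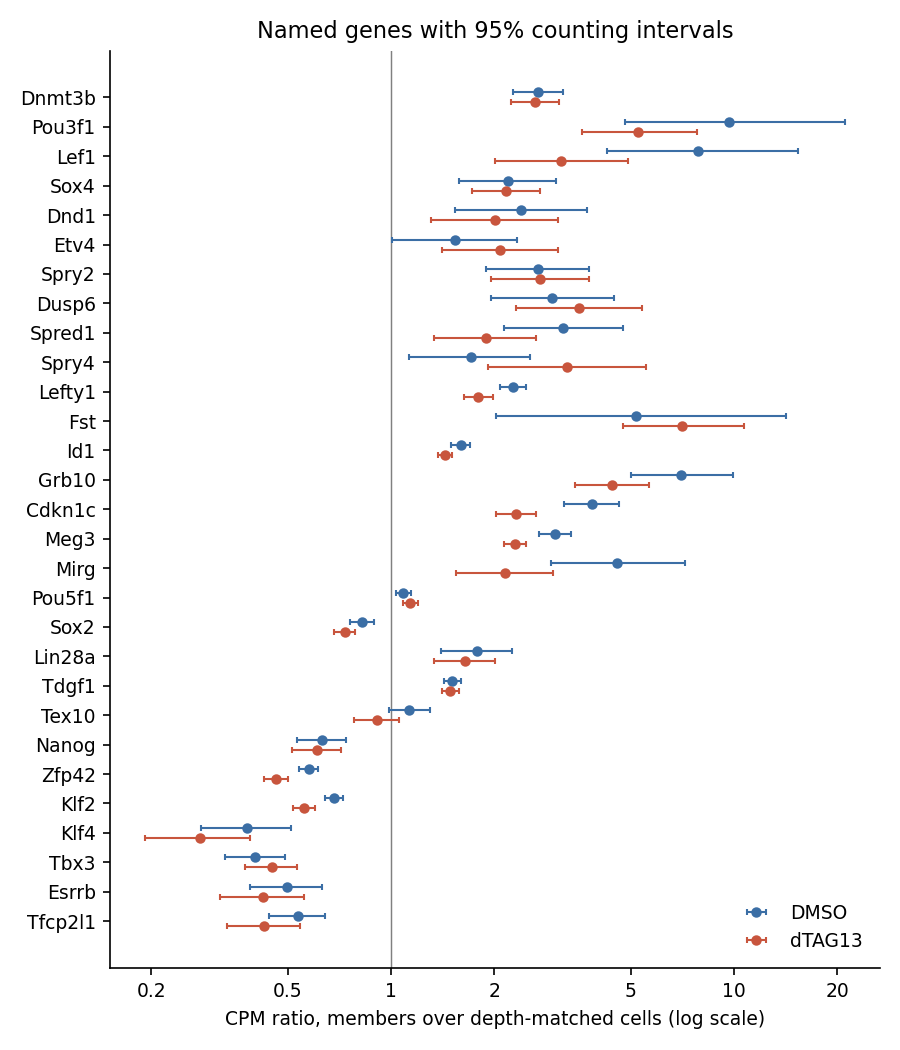
Ratio of CPM in members over depth-matched cells (log scale) for 29 named genes in the DMSO and dTAG13 libraries, with exact 95% counting intervals. Among the genes picked for this figure, formative, FGF response, Nodal and imprinted genes lie to the right of 1. The naive genes from Nanog to Tfcp2l1 lie to the left, and Pou5f1 lies at 1.09 and 1.14. Genes of the same lists with ratios near 1 or in the other direction, such as Otx2, Etv5, Nodal, Cfc1, Igf2r and Klf5, are not shown.

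FGF pathway genes were examined because Fgf8 belongs to the rule. Among ligands, Fgf15 stood at 16.3 against 5.95 CPM in the DMSO library and 6.62 against 0.890 CPM in the dTAG13 library, and Fgf17, of the same subfamily as Fgf8, at 26.7 against 15.8 CPM and 9.41 against 4.18 CPM. Fgf4, the ligand of naive cells, was lower, at 67.1 against 92.5 CPM and 46.6 against 65.4 CPM. The receptor Fgfr1 had ratios of 1.08 (0.863 to 1.34) and 1.11 (0.960 to 1.28), and none of the 6 measured receptors and adaptors was called in either direction in either library. Genes that respond to FGF and ERK were called higher in 7 of 11 cases with DMSO and 5 of 9 with dTAG13, and none was called lower. Over all genes, the shares called were 5.36% and 5.59% higher and 4.66% and 4.25% lower. Spry2, a feedback inhibitor of receptor tyrosine kinases, stood at 21.0 against 7.86 CPM and at 19.3 against 7.12 CPM. Dusp6, the ERK phosphatase, stood at 15.7 against 5.31 CPM and at 13.5 against 3.83 CPM. Etv5, often used as a readout of the same pathway, had ratios of 1.03 and 0.923, and Egr1 of 1.14 and 1.16, so the response genes did not move as 1 group.

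Imprinted genes, which are expressed from 1 parental copy, were mostly higher. In DMSO members 10 of 11 measured genes were called higher, and in dTAG13 members 8 of 10, against 5.36% and 5.59% of all genes. The medians were 1.59 and 1.09 on the log2 scale. Grb10, an inhibitor of growth factor receptors, stood at 38.0 against 5.42 CPM and at 42.8 against 9.70 CPM. Cdkn1c, an inhibitor of cyclin-dependent kinases, stood at 86.6 against 22.5 CPM and at 102.6 against 44.3 CPM. The noncoding RNAs Meg3 and Mirg of 1 imprinted cluster had ratios of 3.01 and 4.55 with DMSO and 2.30 and 2.14 with dTAG13. Igf2r was near the level of matched cells, with ratios of 1.18 and 0.999, and H19 and Igf2 had under 1 CPM in all groups.

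Genes of the Nodal, BMP and Wnt pathways were higher in part. Lefty1, a Nodal antagonist, stood at 279.7 against 123.4 CPM and at 174.1 against 97.0 CPM, while Nodal itself had ratios of 1.04 (0.833 to 1.28) and 0.968 (0.845 to 1.11). Cfc1, a co-receptor, went the other way, at 5.96 against 22.4 CPM and 1.27 against 4.72 CPM. The BMP target Id1 stood at 495.2 against 310.6 CPM and at 653.7 against 455.5 CPM. Called higher were 4 of 10 and 5 of 10 Nodal pathway genes, 4 of 6 and 1 of 5 BMP pathway genes, and 3 of 7 and 3 of 6 Wnt pathway genes in the DMSO and dTAG13 libraries. Over all genes, 5.36% and 5.59% were called higher and 4.66% and 4.25% lower. With lists this short, a single call is a weak description. Called lower with DMSO were 1 Nodal pathway gene, Cfc1, and 1 BMP pathway gene, the ligand Bmp4, at 6.59 against 13.4 CPM. None of the 3 lists had a gene called lower with dTAG13, where Cfc1 was below the 10 CPM limit and so could not be called.

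Primitive streak genes were low in level and higher in members than in matched cells. Their summed level was 20.1 CPM in DMSO members and 6.16 CPM in matched cells, and 46.6 and 11.1 CPM with dTAG13, ratios of 3.26 (2.25 to 4.73) and 4.18 (3.32 to 5.30). Brachyury, T, had 15 UMIs in DMSO members, all in 1.65% of these cells, and 1 UMI in matched cells, and it had 34 UMIs in 4.27% of dTAG13 members against 2. Wnt3 stood at 3.45 against 0.212 CPM with DMSO and at 13.7 against 4.01 CPM with dTAG13, where it was the 1 gene of the list that reached 10 CPM and was called higher. Foxa2 had 0 UMIs in all 4 groups. The nascent mesoderm list had sums of 22.6 against 14.8 CPM and 24.9 against 15.1 CPM, ratios of 1.53 (1.13 to 2.05) and 1.65 (1.27 to 2.12). Its 1 measured gene was called higher in each library, Etv2 with DMSO at 16.3 against 10.3 CPM and Hand1 with dTAG13 at 11.5 against 5.07 CPM. Over all genes, 5.36% and 5.59% were called higher. Hand1 also belongs to the trophoblast list and supplied 11.5 of the 24.9 CPM of the sum in dTAG13 members. It was also a leading gene of the dTAG13 keratin cluster described below. Mesp1 and Msgn1 had 0 UMIs in the members. T and Wnt3 were chosen after their values were seen.

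Markers of the cell types in which Ebf1, Nefl and Sox11 are best known gave a mixed picture. The counts below stand beside 5.36% and 5.59% of all genes called higher with DMSO and dTAG13, and 4.66% and 4.25% called lower. Of the B cell list, no gene reached 10 CPM, and its sum was 5.64 CPM in DMSO members against 4.14 and 2.54 against 2.58 CPM with dTAG13, with Rag1 and Rag2 at 0. Of the blood and endothelium list 2 genes were measured in each library, none was called higher, and 1 and 2 were called lower; the list's sum was 35.4 against 48.2 CPM and 39.95 against 72.7 CPM. Of 3 measured neural genes, 1 was called higher in each library, 1 was called lower with DMSO and none with dTAG13. The list's sum was 375.1 against 433.4 CPM and 268.5 against 259.5 CPM. Most of it came from Stmn2, which encodes a microtubule regulator of neurons, at 308.6 CPM in DMSO members against 355.2 CPM in matched cells and 183.5 against 189.3 CPM with dTAG13. Sox1, Neurog2 and Dcx had 0 UMIs in the members, while Pax6, a homeobox gene of neural progenitors, stood at 6.27 against 1.49 CPM and 2.04 against 0.712 CPM. Tubb3 was at 34.2 against 57.5 CPM and 27.5 against 38.8 CPM, and Nes, an intermediate filament of progenitors, was at 13.2 against 6.16 CPM and 44.0 against 21.7 CPM. The Ebf relatives Ebf2, Ebf3 and Ebf4 were under 1 CPM in all groups. Intermediate filament genes other than Nefl were higher: 5 of 6 and 6 of 8 were called, with Vim at 103.8 against 60.7 CPM and 109.9 against 53.8 CPM, and Ina at 78.4 against 40.5 CPM and 41.0 against 22.3 CPM. Among them were the keratins Krt8 and Krt18, which also belong to the trophoblast list. Krt18 stood at 32.0 against 13.3 CPM and 104.1 against 40.9 CPM. The summed trophoblast list was at 114.8 against 216.1 CPM with DMSO and 285.0 against 152.9 CPM with dTAG13, with 2 of 4 and 3 of 5 genes called higher and 2 and 1 called lower. Tpbpa was at 0 in all groups, and the part of such cells in the dTAG13 results was not tested.

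Few genes of growth and of the cell cycle were called. None of the 32 genes of G2 and M phase was called in either library. Of 28 S phase genes none was called with DMSO and 1 with dTAG13 (Ccne2, named after its value was seen). None of 25 ribosome biogenesis genes was called. At this limit 5.36% and 5.59% of all genes were called higher and 4.66% and 4.25% lower. The summed G2 and M list had ratios of 0.961 (0.947 to 0.974) and 0.920 (0.908 to 0.932), and 7 and 6 of its genes had ratios above 1. The S phase sums had ratios of 1.019 (0.993 to 1.045) and 1.023 (0.997 to 1.05). Those of ribosome biogenesis were 1.024 (1.014 to 1.034) and 1.035 (1.025 to 1.044). Tex10 stood at 89.7 against 79.4 CPM with DMSO and 57.0 against 62.9 CPM with dTAG13, ratios of 1.13 (0.983 to 1.30) and 0.907 (0.777 to 1.06).

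Beyond the lists, the genes with the highest ratios in both libraries included Grb10, the adhesion receptor Adgrl2, Limd2, Prtg, Trh, Serpinh1, the actin-binding protein gene Tagln and the chromatin remodeller genes Smarca1 and Chd7. Adgrl2 stood at 47.4 against 9.24 CPM and at 55.5 against 14.4 CPM. Trh stood at 250.9 against 79.9 CPM and at 233.3 against 50.03 CPM. The genes with the lowest ratios included Calcoco2, an autophagy receptor, at 107.3 against 394.8 CPM and 76.3 against 255.5 CPM, Aqp3, a water and glycerol channel, at 18.2 against 51.1 CPM and 13.0 against 52.9 CPM, and Rhox9, a homeobox gene with close relatives whose reads may be shared, at 25.7 against 87.2 CPM and 14.0 against 23.6 CPM.

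The naive contrast was larger in cells with more UMIs of the 5 genes. In the DMSO library the naive ratio was 0.919 (0.905 to 0.932) in cells with 1 UMI, which are no members, 0.739 with 2, 0.559 with 3 and 0.375 (0.342 to 0.412) with 4 or more. In the dTAG13 library the values were 0.838 (0.820 to 0.855), 0.594, 0.483 (0.442 to 0.528) and 0.459 (0.422 to 0.499). There the intervals with 3 and with 4 or more UMIs overlapped. In the same order of classes the formative ratio was 1.23, 1.595, 1.935 and 1.90 in the DMSO library, with no further rise past 3 UMIs. It was 1.42, 1.74, 1.94 (1.635 to 2.29) and 2.41 (2.083 to 2.787) in the dTAG13 library, where the intervals of the highest classes overlapped. The Pou5f1 ratio stayed between 1.03 and 1.13 over the 8 classes. Each class was set beside its own depth-matched cells.

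**Figure D4:**
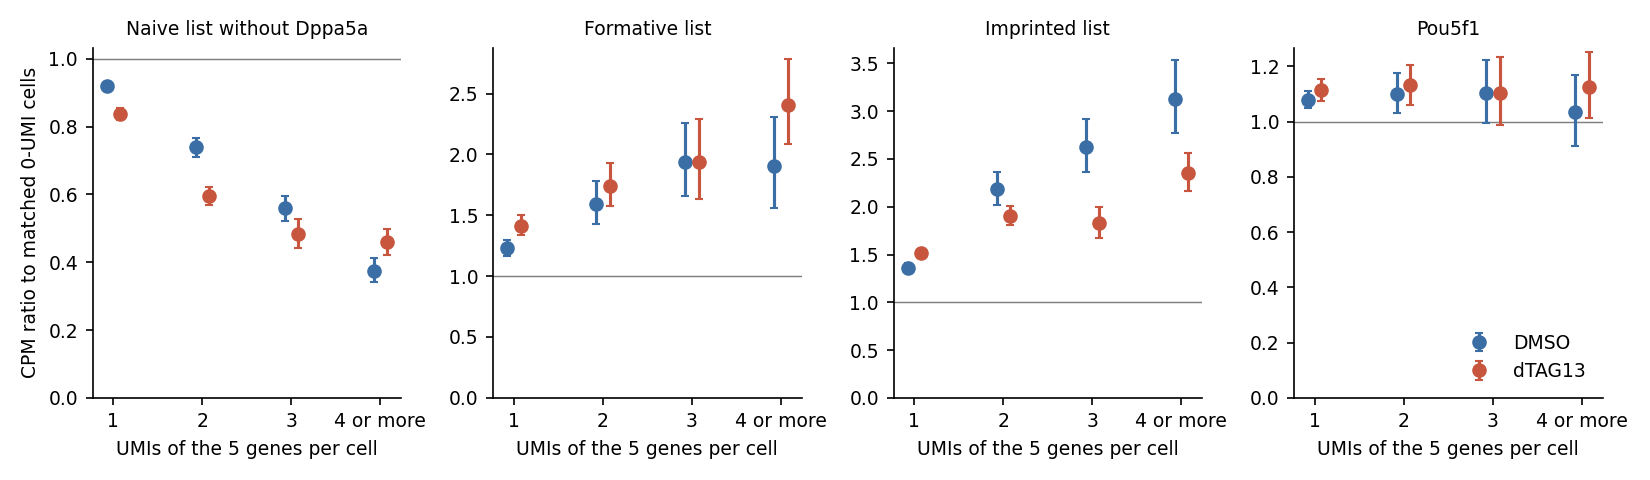
Ratio of summed CPM to depth-matched 0-UMI cells for the naive list without Dppa5a, the formative list, the imprinted list and Pou5f1 in cells with 1, 2, 3 or at least 4 UMIs of the 5 genes, with exact 95% counting intervals and vertical axes that start at 0. The naive ratio is 0.919 with 1 UMI and 0.375 with at least 4 in the DMSO library, and 0.838 and 0.459 with dTAG13, while Pou5f1 stays near 1.

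The members were not alike, and their ratios differed by the gene they carried. DMSO members with Fgf8 had a naive ratio of 0.406 (0.370 to 0.445), those with Sox11 of 0.495 (0.465 to 0.527), those with Ebf1 of 0.571 (0.549 to 0.594) and those with Nefl of 0.788 (0.758 to 0.820). The 63 DMSO members that qualified by Nefl alone had a naive ratio of 0.945 (0.886 to 1.01) and a formative ratio of 1.42 (1.16 to 1.75), whereas the 77 that qualified by Ebf1 alone had 0.531 (0.492 to 0.573) and 1.65 (1.36 to 1.99). In the dTAG13 library the Nefl members were closer to the rest, at 0.597 (0.569 to 0.625) against 0.554 (0.527 to 0.583) for Ebf1, 0.443 for Sox11 and 0.410 for Fgf8, and the 60 with Nefl alone had 0.689 (0.636 to 0.745). Members with 2 genes count in more than 1 of these groups.

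Thinned to 4000 UMIs, single members carried a median of 5 UMIs of the naive genes without Dppa5a in the DMSO library (quartiles 2 and 9) and cells with 0 UMIs of the 5 genes carried 9 (7 and 12). In the dTAG13 library the medians were 3 (1 and 5) and 7 (4 and 10). A Dnmt3b UMI was seen in 26.8% (22.3 to 31.8) of DMSO members and 10.2% (9.73 to 10.7) of cells without the transcripts, and in 22.2% (17.8 to 27.1) and 8.95% (8.39 to 9.54) with dTAG13. Cells with more formative than naive UMIs made up 10.5% of DMSO members and 0.581% of the others, and 20.9% and 2.97% with dTAG13. The quartiles of members and other cells overlapped in both libraries.

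Clusters built in each library without the 5 genes placed most members together. In the DMSO library 211 members, 58.0% of all, fell into 1 of 14 clusters, which held 1785 cells and was led by Tagln, Cdkn1c, Grb10, Adgrl2, Car2 and Lefty1. In the dTAG13 library 184 members, 56.1%, fell into 1 of 12 clusters, with 1022 cells, led by Pim2, Adgrl2, Smarca1, Grb10, Cdkn1c and Dnmt3b. Members were a minority there, 11.8% (10.4 to 13.4) and 18.0% (15.7 to 20.5) of the cluster's cells. After thinning to 4000 UMIs the shares were 6.33% (5.21 to 7.62) and 5.54% (4.204 to 7.16). The lowest thinned share in a cluster of over 1000 cells was 0.0825% (0.00999 to 0.298) in a DMSO cluster led by Rhox9 and Rhox6, with a median of 5593 UMIs against 6230 in the member cluster, and 0.161% (0.0195 to 0.579) in a dTAG13 cluster with 7434 UMIs against 8434. These clusters were picked by their member counts or shares, so a gap between them was given beforehand and is a description. The thinned shares compare cells at the same depth, and their intervals reflect counting error alone. No cell type name was given to the clusters.

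**Figure D5:**
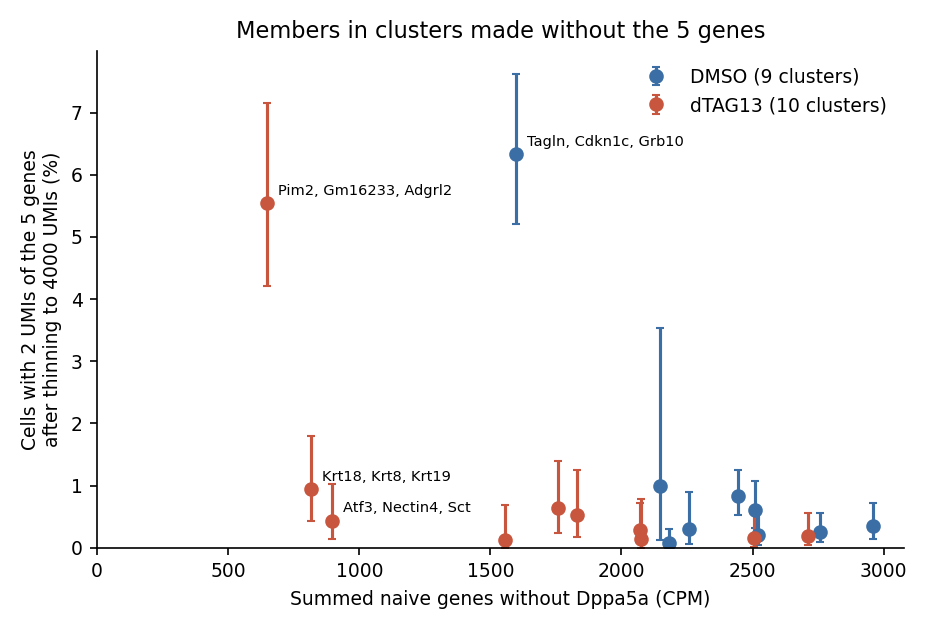
Share of cells (percent) with at least 2 UMIs of the 5 genes after thinning to 4000 UMIs, with exact 95% binomial intervals, against the summed naive CPM without Dppa5a of each cluster, for clusters with at least 100 thinned cells in the DMSO and dTAG13 libraries. In each library 1 cluster stands above the rest, at 6.33% and 5.54%, and the dTAG13 keratin cluster with a low naive sum is at 0.948%.

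Clusters with low naive levels differed in their member shares. The dTAG13 cluster led by Krt18, Krt8 and Krt19 had a naive sum of 816.1 CPM and a thinned member share of 0.948% (0.434 to 1.79), close to the library's 0.886%; it held 46 members, 3.96% of its cells and 14.0% of all dTAG13 members. The dTAG13 cluster led by Atf3 and Nectin4 had 896.6 CPM and 0.438% (0.142 to 1.02), while the member cluster had 649.4 CPM and 5.54%. Their formative sums were 205.1 and 138.0 CPM, against 265.4 CPM in the member cluster.

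The position of a member in or out of the main cluster was set beside its ratios, a comparison added after the data were seen. Inside the DMSO cluster, members had a naive ratio of 0.546 (0.519 to 0.574) and a Dnmt3b ratio of 2.37 (1.95 to 2.89) to matched cells of the same cluster. The 153 DMSO members in other clusters had a naive ratio of 0.928 (0.891 to 0.966) and a Dnmt3b ratio of 1.68 (1.24 to 2.25). In the dTAG13 library the naive ratio was 0.763 (0.714 to 0.815) inside and 0.770 (0.735 to 0.807) outside, and the Dnmt3b ratio 1.40 (1.16 to 1.68) and 2.24 (1.68 to 2.99). Since clusters are built from the same genes, these are descriptions. In the dTAG13 cluster only 172 of 184 members found a match, with medians of 10593 and 9272 UMIs, so depth was less well balanced there.

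Between the libraries, similar numbers of genes were called in members and in matched cells. Of 5079 genes, 517 (10.2%) were called higher and 225 (4.43%) lower in dTAG13 members than in DMSO members, against 484 of 5030 (9.62%) and 252 (5.01%) in the matched cells. Targets of p53 were higher in the dTAG13 members, with 23 of 28 called and a median of 1.39 on the log2 scale, and so they were in matched cells, with 24 of 29 and 1.33; at the list limit 13.2% and 11.5% of all genes were called higher and 5.84% and 5.99% lower. Mdm2, which encodes the ligase that restrains p53, stood at 302.1 CPM in dTAG13 members and 40.5 CPM in DMSO members, and at 348.8 and 39.6 CPM in matched cells. Ddit4, an inhibitor of mTORC1, stood at 75.6 and 5.33 CPM, and at 70.4 and 4.99 CPM. Within a library, p53 targets had medians of 0.08 and -0.02 between members and matched cells. The trophoblast sum went in opposite directions: dTAG13 over DMSO it had a ratio of 2.48 (2.21 to 2.80) in members and 0.708 (0.663 to 0.755) in matched cells. This sum mixes genes that moved apart. By the values given above, Krt18 was higher and Rhox9 lower with dTAG13 in both members and matched cells. In members 4 of 5 measured genes were called higher and 1 lower, and in matched cells 2 of 4 higher and 2 lower.

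Other genes with high ratios between the libraries in the members were Nectin4, Shisa4, Sct, Prph, Plin2, Nudt18, Krt19 and Slc4a11. Plin2, a lipid droplet protein, was at 72.5 against 8.15 CPM in members, a ratio of 8.89 (5.95 to 13.8), and at 42.8 against 11.6 CPM in matched cells, a ratio of 3.70 (2.998 to 4.60). Tcf15, a transcription factor linked to exit from the naive state, was lower with dTAG13, at 46.6 against 156.2 CPM in members and 26.4 against 81.6 CPM in matched cells. Within each library it was nonetheless higher in members, with ratios of 1.91 (1.71 to 2.15) and 1.77 (1.46 to 2.13). Sfrp1, a Wnt antagonist, was at 6.11 against 31.4 CPM in members and 9.53 against 46.1 CPM in matched cells.

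Naive genes were lower in dTAG13 than in DMSO members, with a ratio of the summed list without Dppa5a of 0.561 (0.537 to 0.586), against 0.667 (0.654 to 0.680) in the matched cells. The formative sum had a ratio of 0.988 (0.906 to 1.08) in members. Dnmt3b stood at 75.6 CPM in dTAG13 members and 87.2 CPM in DMSO members, a ratio of 0.867 (0.734 to 1.02). Tex10 stood at 57.0 and 89.7 CPM, a ratio of 0.635 (0.531 to 0.760), and its ratio in matched cells was 0.792 (0.714 to 0.879). dTAG13 acts on protein, so these mRNA levels do not check the loss of a protein. Members were deeper in the dTAG13 library, with the medians given above. With members chosen after thinning to 4000 UMIs, the naive ratio between libraries was 0.742 (0.653 to 0.841) and the formative ratio 1.09 (0.858 to 1.39). Library and treatment cannot be told apart.

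Matched cells had the depth of members by design, and their mitochondrial shares were close. Mitochondrial UMIs had medians of 2.40% and 2.55% in DMSO members and matched cells and of 1.97% and 2.04% with dTAG13. Cells above the library's 95th percentile of UMIs made up 17.0% of DMSO members and 16.9% of matched cells, and 23.5% and 21.8% with dTAG13. No cell was removed as a doublet. The libraries shared 64 cell barcodes.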

How the data were processed

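The deposited values are raw UMI counts per gene and cell for 1 DMSO and 1 dTAG13 library; per the file headers they were written by Cell Ranger 8.0.1. Seurat 5.0.1, R 4.3.2 and mm10 appear, with no role given, per the submitters' processing notes. Kept were barcodes with 500 genes or more whose mitochondrial UMIs did not exceed 10%, 17878 of 17958 and 11588 of 11644, with medians of 6014 and 7072.5 UMIs. No doublet caller was run. The members and gene lists were chosen with earlier results of these data known.

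Members were set beside up to 3 cells with 0 UMIs of the 5 genes, nearest in total UMIs and within 5%, without replacement and with the 5 genes left out of totals. Counts were summed per group and given as CPM; intervals (95%) are exact conditional binomial for ratios and Clopper-Pearson for shares. A gene was called at 1.5-fold with 20 CPM or more in 1 or both groups, and a list's gene with 10 CPM. With 1 library per group no test was made. Clusters (scanpy 1.11.5, leidenalg 0.10.2) were built per library without the 5 genes. Python 3.11.15, numpy 2.4.6, scipy 1.17.1, pandas 2.3.3 and matplotlib 3.10.9 were used, and the ratio and matching steps were checked on simulated data.

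Named genes were the 5 rule genes, Dnmt3b, Pou5f1, Sox2, Nanog and Tex10, the 15 highest and 15 lowest between members and matched cells in both libraries, the 10 highest and 10 lowest between libraries in members, up to 4 genes per list by size of change, any gene of the families and pathways of the rule genes, and the 5 genes most like Fgf8. Predicted, ribosomal protein and mitochondrial genes were left out. Other genes named, such as Zfp42, Klf2, Klf5, Dppa5a, Tead2, Igf2r, Nodal, T, Wnt3 and markers at 0, were chosen after their values were seen. Alternatives covered the reference cells, thinning, the UMI threshold, the CPM limit, the filters and each gene of the rule. Results for a few genes that these rules would name are not reported here.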

Additional observations from a re-analysis of the deposited data

How the results depend on the processing

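No paired analysis was possible because each group has 1 library. Of the alternative values, 134 stayed within the main counting interval or, for counts of genes, within 1.5 times the main count, and 54 did not; the Dnmt3b, naive and formative ratios of members to 0-UMI cells and the naive ratio between libraries kept their direction, and the formative ratio between libraries, 0.988 with an interval that includes 1, moved above 1. Directions of other single genes were not recomputed. Thinning to 4000, 2500 or 6000 UMIs gave member shares of 0.937%, 0.511% and 1.91% with DMSO and 0.886%, 0.455% and 1.75% with dTAG13, so that DMSO was the higher at each depth, with overlapping intervals. Depth therefore limits any statement on the member share.

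A threshold of 3 UMIs gave shares of 0.811% and 1.11% in the DMSO and dTAG13 libraries, naive ratios of 0.484 and 0.473, formative ratios of 1.92 and 2.24, 287 and 300 genes higher and 382 and 314 lower, and a Dnmt3b ratio of 3.23 with dTAG13. Requiring 2 different genes gave shares of 1.15% and 1.47%, a DMSO naive ratio of 0.579 and 232 genes lower with DMSO. Without cells above the 95th percentile of UMIs the shares were 1.78% and 2.28% and the dTAG13 Dnmt3b ratio was 3.33.

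Without Ebf1 in the rule the shares were 0.973% and 1.68% and the DMSO naive ratio was 0.690. Without Sox11 they were 1.69% and 1.97%, with a dTAG13 naive ratio of 0.591, and without Fgf8 the DMSO share was 1.82%. Without Nefl the shares were 1.23% and 1.61%, the naive ratios 0.482 and 0.479, the genes higher 269 with DMSO, and the genes lower 315 and 258.

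A limit of 50 CPM, which tests fewer genes, gave 60 and 76 genes higher and 55 and 67 lower; no limit gave 2579 and 2777 higher and 1590 and 1650 lower. With all 0-UMI cells as reference the dTAG13 naive ratio was 0.497. With these cells thinned to 4000 UMIs it was 0.512, with a Dnmt3b ratio of 3.24, 306 genes higher and 275 lower. Choosing members after thinning gave, between libraries, 1135 genes higher and 609 lower, a naive ratio of 0.742 and a formative ratio of 1.09. Apart from the number of genes tested, the cause of these changes was not tested.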
